A study of Homo sapiens with 2 samples.

Results

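The E2F family and its DP partners are transcription factors that time entry into S phase. The set described here comprised 10 genes, E2F1 to E2F8 with TFDP1 and TFDP2, chosen by symbol from the 60683 genes of the count table, and all 10 matched a single Ensembl identifier. The RNA-seq counts are from 2 samples of HEK293T, a line of human embryonic kidney origin that carries the SV40 large T antigen, both with stable FKBP5 knockdown by short hairpin RNAs. Cells with a scrambled control are mentioned in the extraction protocol and were not analysed here, so the values are levels in knockdown cells and differences between 2 libraries of 1 group, with no effect of the knockdown. Separate cultures are not stated in the labels, and the spread between the samples may therefore be technical.

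E2F1 to E2F6 bind DNA as dimers with a DP protein, while E2F7 and E2F8 carry a duplicated DNA-binding domain and bind without DP. E2F1, E2F2 and E2F3 are usually called activators, which the retinoblastoma protein RB1 holds inactive until cyclin-dependent kinases phosphorylate it. E2F4 and E2F5 repress with the related pocket proteins RBL1 and RBL2, E2F6 represses through Polycomb proteins, and E2F7 and E2F8 are atypical repressors that are themselves induced by E2F. Large T antigen binds pocket proteins and releases E2F from them, which is only a part of the known setting of this cell line.

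Sample 1 held 9997706 counts and sample 2 held 21284648, so values of sample 2 carry the smaller counting error. For FKBP5, the targeted gene, 41 and 77 counts were found, which with no control cells gives no check of the knockdown. All 9 genes fixed as markers of the line had at least 1 CPM (counts scaled to library size, not to length), from 2.89 CPM for EYA1 to 297 CPM for NEFL. Of 7 markers of fibroblasts, squamous epithelium and liver, COL3A1 (5.34 CPM) was the only one with at least 1 CPM. Intervals below are 95% exact Poisson intervals and cover counting error only.

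E2F proteins bind near the start sites of cell cycle genes, including their own, and the promoters of the family are shown for this reason. RefSeq (GRCh38.p14) gave promoters of 300 bases, from 250 before to 50 after a start, for 8 of the 10 genes. Entries for E2F5 and E2F8 were missing. They were searched on both strands for the 8-base E2F motifs TTTCGCGC, TTTGGCGC, TTTCCCGC and TTTGCCGC, none of which contains another. At least 1 motif was present for 4 of the 8 genes, all 3 activators and TFDP1, against 3.99% of the 27305 genes in the table. The stretches that hold them are given 5′ to 3′ on the gene's strand, with the motif or its reverse complement in capitals.
E2F1, chr20:33686386-33686430, minus strand: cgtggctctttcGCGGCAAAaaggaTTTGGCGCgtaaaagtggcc
E2F2, chr1:23531256-23531287, minus strand: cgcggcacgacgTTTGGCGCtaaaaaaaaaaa
E2F3, chr6:20401814-20401845, plus strand: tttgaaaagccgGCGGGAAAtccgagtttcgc
TFDP1, chr13:113584621-113584652, plus strand: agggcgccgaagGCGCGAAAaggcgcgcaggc
E2F1 was the only one of the 8 with 2 motifs, which lie between 12 and 33 bases before its RefSeq start. The motif of E2F2 ended 34 bases, that of E2F3 45 bases and that of TFDP1 112 bases before the start. In E2F3 it was found at 1 of 2 annotated starts. The promoters of E2F4, E2F6, E2F7 and TFDP2 held none of these letters within the window. A match describes the sequence and does not show binding.

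All 3 activators were well expressed, with E2F1 highest. E2F1 (ENSG00000101412, chromosome 20, 33675683 to 33686404, minus strand, GRCh38 coordinates from GENCODE 29), which drives S phase genes and can also induce apoptosis, had 1208 counts in sample 1 against 2722 in sample 2. Scaled to depth, this gave 116 CPM (interval 109.95 to 123) and 125 CPM (119.9 to 129), a mean of 120 ± 5.75 CPM (SD, n = 2). E2F3 (chromosome 6, 20401906 to 20493715, plus strand), which is made in a long and a short form from alternative starts, had 92.0 CPM (86.3 to 98.1) and 84.8 CPM (80.97 to 88.7). E2F2 (chromosome 1, 23506430 to 23531220, minus strand), the third activator, had 68.7 CPM (63.8 to 73.95) and 76.9 CPM (73.2 to 80.6). E2F1 and E2F2 were higher in sample 2 and E2F3 was lower, and the intervals of the samples overlapped for each of E2F1, E2F2 and E2F3. The table gives 1 count per gene, so the long and short forms of E2F3 cannot be told apart.

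The canonical repressors were unequal. E2F4 (ENSG00000205250, chromosome 16, 67192169 to 67198918, plus strand), the main E2F of quiescent cells in complex with RBL2, had 1434 and 2953 counts, which were 138 CPM (131 to 146) in sample 1 and 135 CPM (130 to 140.1) in sample 2. E2F5, on chromosome 8, had 236 and 486 counts, which were 22.7 CPM (19.9 to 25.8) and 22.2 CPM (20.3 to 24.3). Samples differed little for either gene, and E2F4 was 6.08 times E2F5 in CPM and 10.1 times per kilobase of exon in both samples. The ratio was 5.09 by coding length and 11.7 by the longest annotated transcript. Of the exonic bases of E2F5, 18.6% lie opposite exons of genes on the other strand, chiefly C8orf59, which had 3.47 and 4.80 CPM. The libraries were directional, but no source used here gives the strand setting of the counting, and the part of these reads in the E2F5 count was not tested.

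E2F6 (chromosome 2, 11444375 to 11466177, minus strand), which lacks the pocket protein binding region of E2F1 to E2F5, had 383 and 759 counts, or 36.9 CPM (33.3 to 40.8) in sample 1 and 34.7 CPM (32.3 to 37.3) in sample 2. Its intervals overlapped between samples. E2F6 has processed pseudogenes, and 88.4% of the 50-base stretches of its transcripts occurred in no other gene, the lowest share among the 10 genes. E2F6P1, E2F6P2 and E2F6P3, which each share most of the rest, had no count in either sample, and E2F6P4 had 1 count in sample 2. The level of E2F6 is therefore uncertain by the reads that fit several places. Among the other pseudogenes E2F3P2 had 1 and 2 counts, TFDP1P2 1 and 5, and TFDP1P3 1 and 0.

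The atypical repressors were the members that differed most between libraries. E2F7 (ENSG00000165891, chromosome 12, 77021247 to 77065580, minus strand) had 483 and 1231 counts, or 46.6 CPM (42.5 to 50.9) in sample 1 and 56.3 CPM (53.2 to 59.6) in sample 2. E2F8 (chromosome 11, 19224063 to 19241620, minus strand), which acts with E2F7 on shared targets, was the lowest of the 10 genes, with 77 and 224 counts, or 7.42 CPM (5.86 to 9.28) and 10.2 CPM (8.95 to 11.7). Both were higher in sample 2. The intervals of the samples did not overlap for E2F7 and did overlap for E2F8. The share of all genes with intervals that do not overlap was not computed. The ratio of sample 2 to sample 1, 1.21 for E2F7, lay within the 5th to 95th percentile (0.841 to 1.24) of genes between 5 and 300 CPM. That of E2F8, 1.38, lay outside it.

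Of the DP partners, TFDP1 dominated. TFDP1 (ENSG00000198176, chromosome 13, 113584721 to 113641470, plus strand), the most abundant gene of the set, had 2694 and 5831 counts, or 260 CPM (249.9 to 270) in sample 1 and 267 CPM (260.01 to 274) in sample 2. TFDP2 (chromosome 3, 141944428 to 142149544, minus strand), which encodes the related DP2, had 78.1 CPM (72.8 to 83.6) and 79.3 CPM (75.7 to 83.2). Intervals overlapped between samples for both. TFDP3, a further member of the DP family that lies outside the set, had 2 counts in each sample, below the level of 3 counts that was taken as the floor.

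**Figure D1:**
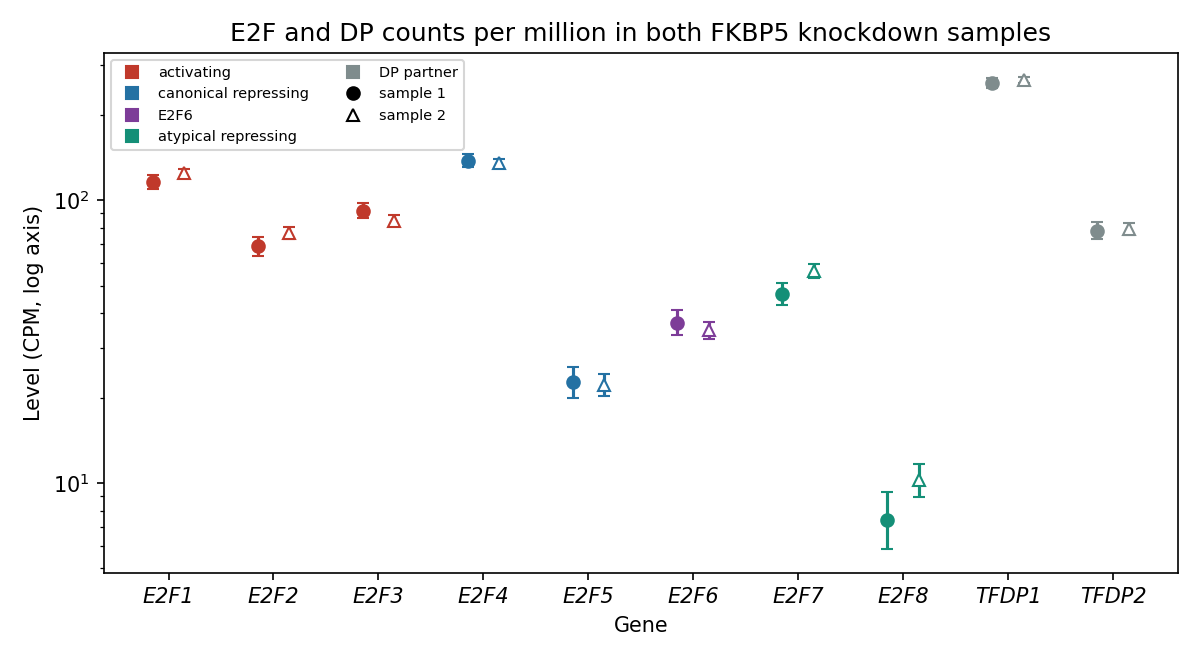
Level in CPM (log axis) of the 10 genes in sample 1 (filled circles) and sample 2 (open triangles), coloured by class, with 95% exact Poisson intervals as bars. TFDP1 sits highest, at 260 and 267 CPM, and E2F8 lowest, at 7.42 and 10.2 CPM. Intervals do not overlap for E2F7 alone, and the share of all genes with such intervals was not computed.

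CPM do not account for transcript length, so genes were set in order by CPM per kilobase, using all annotated exonic bases of a gene. TFDP1 led with 69.4 in sample 1 and 71.3 in sample 2, followed by E2F1 with 46.5 and 49.8 and by E2F4 with 38.6 and 37.7. E2F3 had 17.8 and 16.4, E2F2 12.6 and 14.1, E2F6 9.08 and 8.54, E2F7 7.39 and 8.94, TFDP2 6.56 and 6.67, E2F5 3.84 and 3.75, and E2F8 1.79 and 2.48 CPM per kilobase. Only E2F6 and E2F7 were neighbours whose values overlapped between the samples. Among 13244 protein-coding genes that averaged 1 CPM or more, whose median was 5.72 CPM per kilobase, TFDP1 lay at the percentile 96.8, E2F1 at 94.4 and E2F4 at 92.1, while E2F5 lay at 38.8 and E2F8 at 26.4.

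The order of E2F1 and E2F4 depended on the length used. By the longest annotated transcript E2F4 came first, with 52.9 and 51.7 CPM per kilobase against 46.5 and 49.8 for E2F1. By coding length it did so as well, with 112 and 109 against 88.8 and 95.01. TFDP2, whose annotated exons span 11897 bases but whose coding length is 1338 bases, moved from the eighth place to the fifth by coding length. TFDP1 stayed first and E2F8 last in all 3 length scalings and in CPM.

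**Figure D2:**
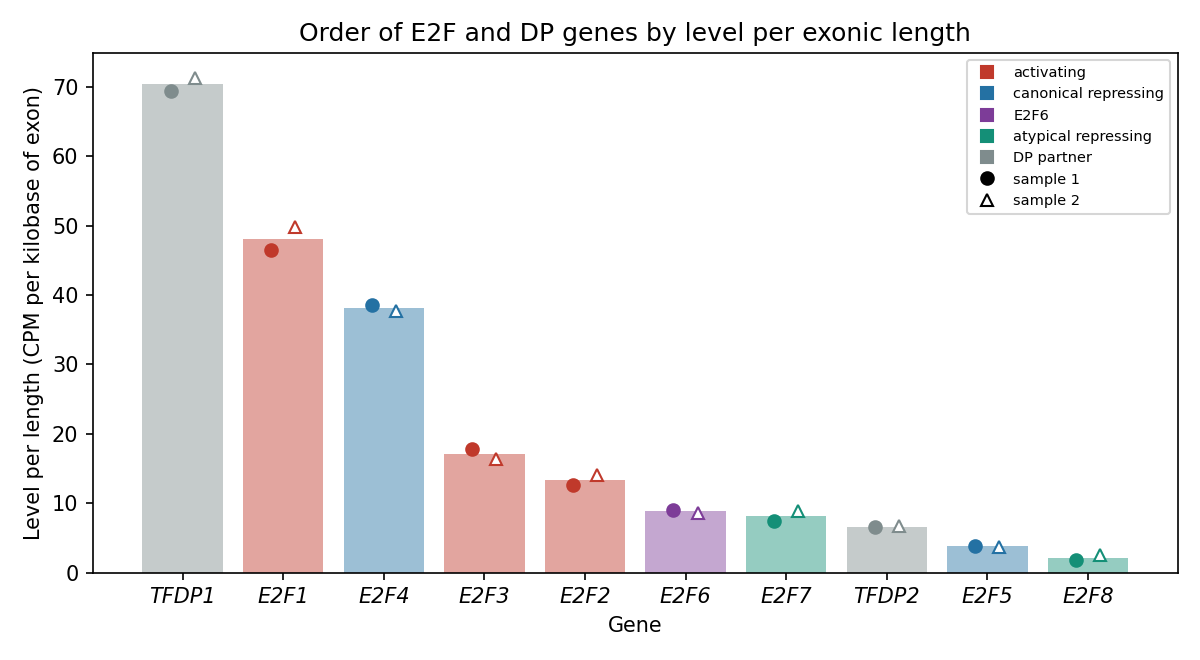
CPM per kilobase of exon for each gene in order of the mean (bars), with sample 1 as filled circles and sample 2 as open triangles, coloured by class. TFDP1, E2F1 and E2F4 reach at least 37.7 CPM per kilobase in both samples and the other genes at most 17.8.

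The activating E2Fs held the larger part of E2F transcript. Summed per kilobase of exon, E2F1, E2F2 and E2F3 had 76.9 in sample 1 and 80.3 in sample 2, and E2F4 and E2F5 had 42.4 and 41.5. Activators therefore held 55.9% and 56.6% of the summed level of the 8 E2F genes, a mean of 56.3 ± 0.525%. The canonical repressors held 30.05 ± 1.10%, E2F6 6.31 ± 0.402% and the atypical repressors 7.36 ± 0.979%. Within the activators, E2F1 alone held 60.5% and 62.0% by exonic length, but 42.9% and 44.3% by coding length and 42.0% and 43.5% in CPM. The ratio of activating to all repressing E2Fs was 1.27 in sample 1 and 1.31 in sample 2. With the longest transcript it was 1.01 and 1.05, close to equal parts, and with coding length 1.05 and 1.09. It stayed above 1 in both samples under each scaling, including plain CPM, where it was 1.10 and 1.11.

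**Figure D3:**
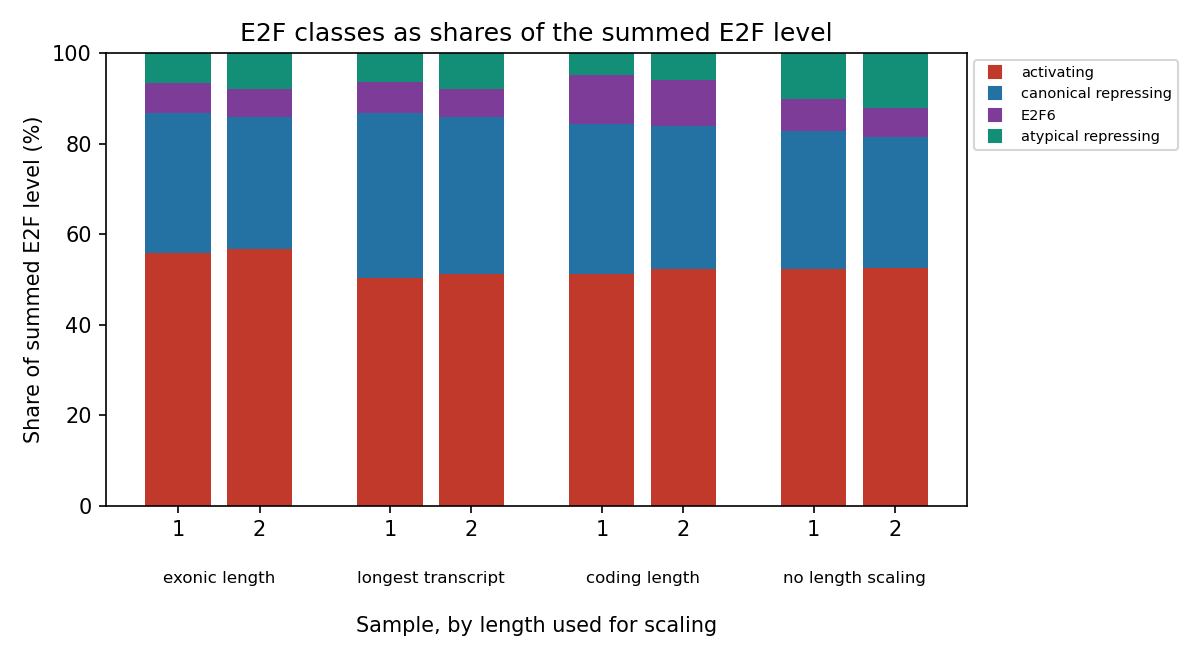
Share of the summed E2F level (in percent) held by each class in samples 1 and 2, for levels scaled by exonic length, by the longest transcript, by coding length and without length. The activating class takes between 50.3% and 56.6% in all 8 bars, and the atypical class takes its largest shares, 10.2% and 12.2%, without length scaling.

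The DP partners had a lower summed level than the E2Fs that need them. TFDP1 and TFDP2 together had 76.0 and 78.0 CPM per kilobase of exon in samples 1 and 2, which was 0.592 and 0.599 times the sum of E2F1 to E2F6. TFDP1 was 10.6 and 10.7 times TFDP2 per kilobase of exon and 3.62 and 3.66 times per kilobase of coding sequence. These are ratios of transcripts, and protein was not measured.

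Between the libraries, E2F7 was the only gene of the 10 that differed past counting error after adjustment. For every gene, a 2-sided exact binomial test set the count in sample 2 against the share expected from the deposited scaling. The p-values were adjusted (Benjamini-Hochberg) over all 15530 genes that averaged 1 CPM or more. It called 8.97% of all genes tested, 4.41% higher in sample 2 and 4.56% lower, so 1 of 10 is near the background. E2F7 was 1.21 times as high in sample 2 (95% exact interval 1.09 to 1.35, adjusted p = 0.0079), and its adjusted p lay between 0.00543 and 0.0209 in 4 other settings. E2F8 had the larger ratio, 1.38 (1.06 to 1.81), at an adjusted p of 0.103. E2F2 had 1.12 (1.02 to 1.22, adjusted p = 0.0948) and E2F1 1.07 (0.999 to 1.15, adjusted p = 0.235).

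The remaining members had ratios between 0.921 and 1.03. E2F3 was the furthest of them from 1, at 0.921 (0.852 to 0.997), with an interval that excludes 1 and an adjusted p of 0.206. E2F4 and E2F5 both had 0.978, with intervals of 0.918 to 1.04 and 0.835 to 1.15. E2F6 had 0.941 (0.831 to 1.07), TFDP1 1.03 (0.982 to 1.08) and TFDP2 1.02 (0.934 to 1.11). In all, 6 of the 10 genes were higher in sample 2 and 4 lower, with the same split under TMM scaling and column totals. An unadjusted p under 0.05 was reached by 4 of the 10 (E2F2, E2F3, E2F7 and E2F8) and by 21.7% of all genes tested. The test includes no variation between cultures and compares 2 libraries, not conditions.

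**Figure D4:**
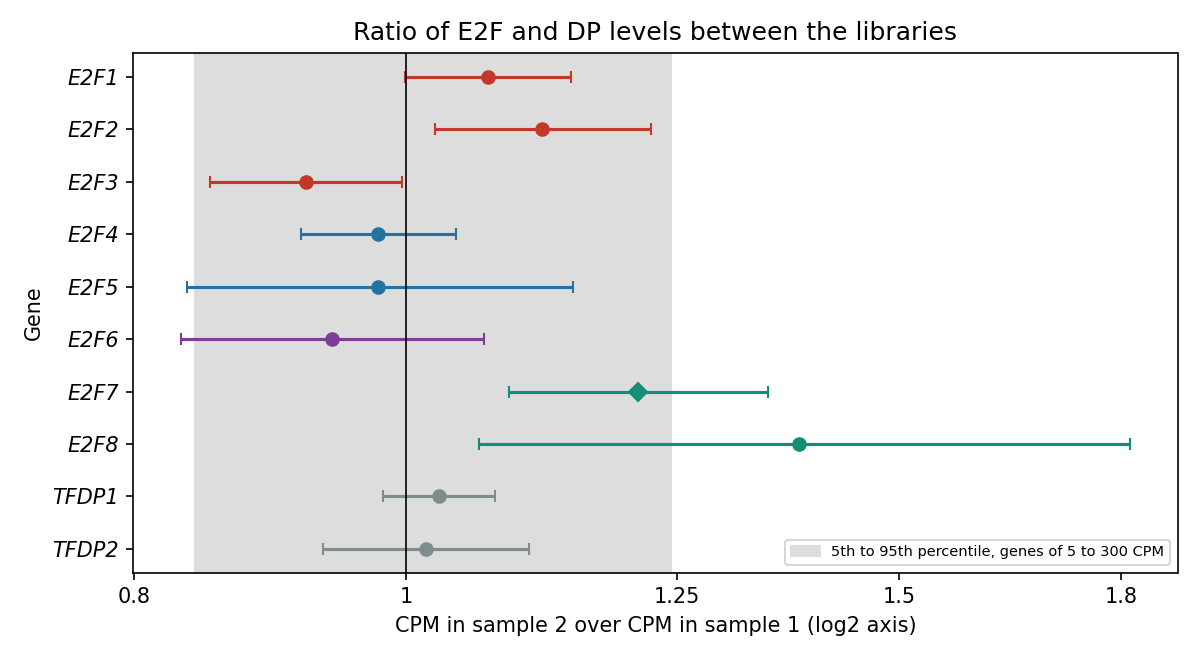
Ratio of CPM in sample 2 to CPM in sample 1 (log2 axis) with 95% exact intervals for the 10 genes; the diamond marks the gene past the adjusted threshold and the grey band spans the 5th to 95th percentile, 0.841 to 1.24, of the 11463 genes between 5 and 300 CPM. E2F8 at 1.38 lies outside the band and E2F7 at 1.21 inside it.

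The pocket proteins were expressed at levels close to one another. RB1, which restrains the activators, had 55.4 and 51.4 CPM in samples 1 and 2, RBL1 35.9 and 34.5 CPM, and RBL2, the partner of E2F4 in quiescence, 53.1 and 62.5 CPM. Per kilobase of exon all 3 lay between 5.92 and 8.28 on average, below E2F1 to E2F4 and E2F6. The order against E2F6 depended on the scaling. In CPM, RB1 and RBL2 lay above E2F6 (36.9 and 34.7 CPM) and RBL1 just below it. RBL2 was the 1 of 3 that passed the library test, 1.18 times as high in sample 2 (adjusted p = 0.0187), where 8.97% of all genes tested passed.

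Other complexes of the family were expressed with few exceptions. Of 7 genes of the MuvB core, which joins E2F4 and a pocket protein in the DREAM repressor, with MYBL2 and FOXM1, which take over MuvB later in the cycle, 6 had at least 1 CPM, and none of these 6 passed the library test. MYBL2, a classic E2F target, led with 463 and 446 CPM, followed by FOXM1 with 209 and 204 CPM and RBBP4 with 131 and 139 CPM. LIN37, named after its values were seen, had 10 and 20 counts, just under 1 CPM. All 12 genes listed as E2F6 partners in the Polycomb complex had at least 1 CPM, led by CBX3 (291 and 271 CPM), HDAC2 (249 and 235 CPM) and HDAC1 (200 and 186 CPM). CBX3 was the 1 of 12 that passed, lower in sample 2 (adjusted p = 0.0194), a share near the 8.97% of all genes tested. Of the 12, 10 had lower values in sample 2 under each scaling, against 46.9% to 50.6% of all genes tested.

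The kinases and inhibitors that act upstream of the pocket proteins were measured in full. All 9 genes listed as G1 cyclins and kinases had at least 1 CPM and none passed the library test. This list includes CCNA2, which is also listed among the S phase targets. CCND1, a D-type cyclin, had 160 and 161 CPM, its kinase CDK4 115 and 107 CPM, and CCND2 105 and 102 CPM. CCNE1 and CCNE2, the E-type cyclins and E2F targets, named after their values were seen, were low at 12.5 and 12.8 CPM and at 6.46 and 6.50 CPM. Among 7 inhibitors CDKN2A, whose INK4A product blocks CDK4, was highest at 260 and 258 CPM, above CDKN1B (115 and 111 CPM) and CDKN2C (65.2 and 71.7 CPM). CDKN2A has 14 annotated transcripts and 1 count per sample, so its INK4A form cannot be told apart. CDKN1C, named after its values were seen, was the 1 of 7 past the test, with 9.73 and 13.5 CPM (adjusted p = 0.0434), where 8.97% of all genes tested passed.

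Genes that E2F activates for S phase stood high. All 50 listed S phase targets had at least 1 CPM, with a median of 97.9 CPM against 23.5 CPM over all genes tested, and 24 had at least 100 CPM. MYBL2 again led, followed by the DNA methyltransferase gene DNMT1 with 453 and 441 CPM and the helicase gene MCM7 with 449 and 432 CPM. E2F motifs as above were present for 27 of the 44 targets in the promoter table, or 61.4%, against 3.99% of all genes there, though such genes are in part known as targets because of these motifs. Of the 50 targets, 37 were lower in sample 2 by the deposited scaling and 40 by TMM or column totals, against 46.9% to 50.6% of all genes tested. Their median log2 ratio of CPM + 1 was -0.05 against 0.01 over all genes tested. The library test called 5 of 50, a share near the 8.97% of all genes. These were CDC6, MCM3, TK1 and UHRF1, lower in sample 2, and WDHD1, higher, all named after their values were seen. The E2F genes at higher values in sample 2 were E2F1, E2F2, E2F7 and E2F8, of which E2F7 alone passed the test. A link between these genes and the targets was not tested.

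The apoptotic targets of E2F1 were all measured, at a lower median than the S phase targets. All 10 had at least 1 CPM, with a median of 35.98 CPM. PMAIP1, which encodes the BH3-only protein NOXA, had 102 and 106 CPM, the apoptosome gene APAF1 54.4 and 52.1 CPM, and BBC3, which encodes PUMA, 41.2 and 44.4 CPM. TP73, the p53 relative that E2F1 induces, named after its values were seen, was the 1 of 10 past the library test, with 29.1 CPM in sample 1 and 35.4 CPM in sample 2 (adjusted p = 0.0433), a share near the 8.97% of all genes tested.

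Germline genes that E2F6 is known to silence were low, and all but STAG3 and TUBA3D were near the floor. Of 7, only STAG3, a meiotic cohesin gene, had at least 1 CPM, with 34 and 63 counts (3.28 and 2.88 CPM). TUBA3D had 0.771 and 0.641 CPM and DDX4 0.289 and 0.229 CPM. The other 4 (SMC1B, MAEL, SLC25A31 and TUBA3C), named after their values were seen, had between 0 and 4 counts in each sample, where 3 counts correspond to 0.289 CPM in sample 1 and 0.137 CPM in sample 2. TUBA3C and TUBA3D are near-identical copies, so reads could be split between them or lost.

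The genes of ubiquitin-dependent E2F turnover were expressed at a median of 126 CPM. CDC20 had 210 and 198 CPM, FZR1, an activator of the anaphase-promoting complex, 151 and 138 CPM, and SKP2, an F-box protein that targets E2F1, 132 and 120 CPM. FZR1 (adjusted p = 0.0477) and FBXO5 (adjusted p = 0.0439), an inhibitor of that complex named after its values were seen, passed the library test, 2 of 5 genes against 8.97% of all genes tested (4.56% lower in sample 2). All 5 had lower values in sample 2 under each of the 3 scalings, as did 46.9% to 50.6% of all genes tested.

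**Figure D5:**
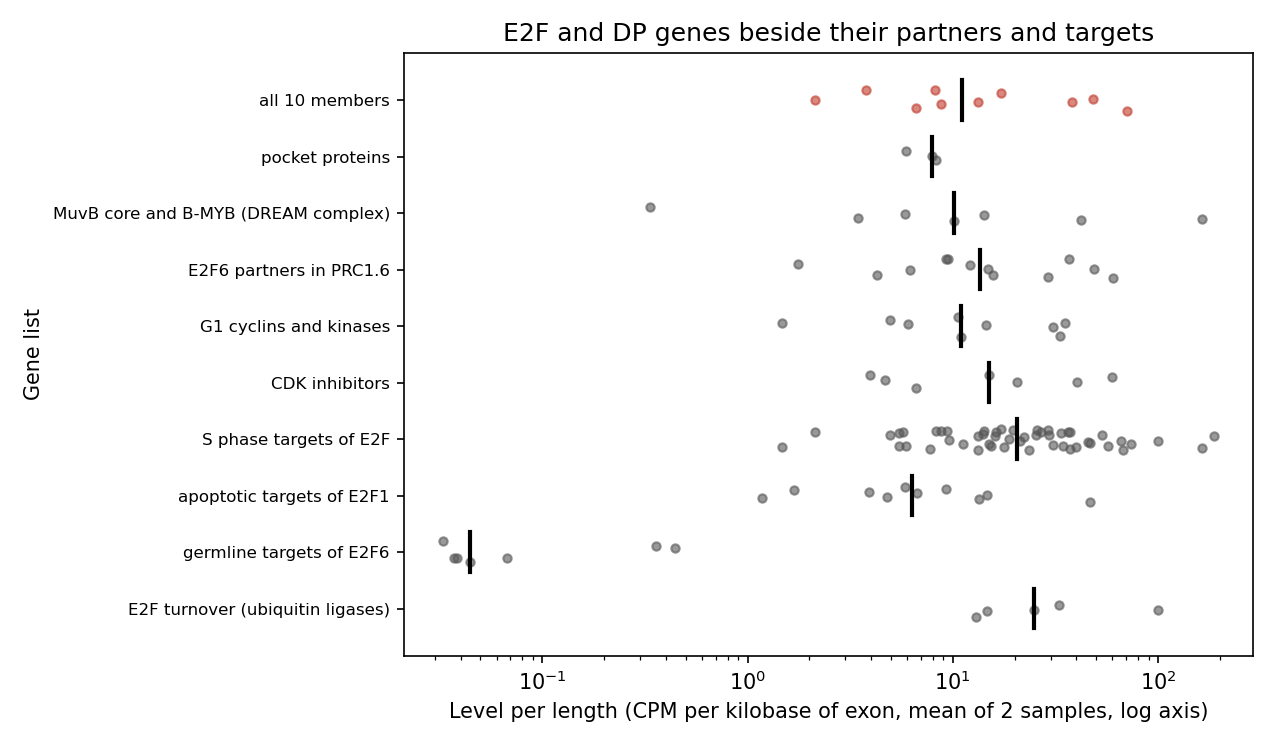
CPM per kilobase of exon (log axis, mean of 2 samples), 1 point per gene, for the 10 E2F and DP genes (red) and the listed partners and targets (grey), with the median of each list as a black bar. The median is 11.1 for the E2F and DP genes and 20.5 for the S phase targets, and the germline targets of E2F6 stand apart at 0.0443.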

How the data were processed

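The authors deposited a table of counts per Ensembl gene, which by its values holds unscaled whole numbers, and a file of CPM for each sample. STAR 2.7.7a, edgeR and GRCh38 are named in the submitters' processing notes; counting program, strand setting and annotation were not found in these sources. Multiplying CPM by 1 factor per sample returned whole reads for 100% of values (tolerance 1e-06), and that factor implied a library 3.78% larger than the counts' sum for sample 1 and 2.68% larger for sample 2.

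Symbols matched 99.5% of gene IDs, and 96.4% were in GENCODE 29, which gave lengths, overlap and 50-base uniqueness. Means and SD are over the 2 samples, and log2 ratios use CPM + 1. The exact binomial test was run on simulated counts that held counting error alone, so this does not cover variation between cultures. Depth limits E2F8 most. Named genes were the 10 members, TFDP3, pseudogenes with a count, the pocket proteins and the 3 highest of each of 9 lists (105 genes). The members and lists were chosen with earlier results of these data known. Likeness of pattern across conditions could not be computed with 1 group. Alternatives were other lengths, scalings, thresholds, filters and leaving out a sample. Tools were Python 3.11.15, pandas 2.3.3, scipy 1.17.1, and edgeR 4.0.16 in R 4.3.3 for TMM library sizes. The blood markers that were fixed are not reported here.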

Additional observations from a re-analysis of the deposited data

How the results depend on the processing

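All 10 genes had at least 1 CPM under every alternative run, and 9 had at least 10 CPM. E2F7 was the 1 gene past the library test in each of 4 other settings. No log2 ratio of the 10 genes changed direction or side of the threshold with TMM or column totals, the last chosen after the data were seen. Another pseudocount was also run, but it could change neither the direction nor the test, which uses counts alone. The class shares depended on the length. With the longest transcript the activating share was 50.7%, the canonical repressing share 35.6% and the ratio of DP to E2F 0.726. With coding length these were 51.7%, 32.4% and 0.708, with E2F6 at 10.4% and the atypical repressors at 5.45%. With no length the activating share was 52.5%, the atypical share 11.2% and the ratio 0.717. Leaving out each sample in turn gave activating shares of 55.9 to 56.6%. No paired analysis was possible because both samples belong to 1 group. With 2 samples, spread is known poorly.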
